A study of Homo sapiens with 12 samples.

Results

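The genes described here make the enzymes that degrade extracellular matrix and their inhibitors: the tissue inhibitors of metalloproteinases TIMP1, TIMP2 and TIMP3, the matrix metalloproteinases MMP1, MMP10 and MMP14, and the plasminogen activation genes PLAU, PLAUR and PLAT. They were given as a list of 9 genes, and 20 probe sets on the array were assigned by the platform annotation to 1 of them alone. All 20 probe sets passed the filter on low signals, among 27098 probe sets of a single gene that passed it, and the 9 genes were among 14061 genes tested. For each gene the main probe set was the one of highest mean signal over the 12 arrays, and signals of different probe sets were not compared with each other, since each has its own brightness. That mean was the measured value used in the choice of probe set, and the genes themselves were picked with earlier results of these arrays known, so the p-values below are given for the measurements and are not independent support for the choice of genes.

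The series measured total RNA from A549, an established human lung carcinoma line, and SW780, an established human bladder carcinoma line, on Affymetrix U133 Plus 2.0 arrays. Each line was transfected with siRNA duplexes at 100 nM for 24 h with a lipid carrier. The duplex was siKDM3A, against the histone H3 lysine 9 demethylase KDM3A, or a control duplex named siEGFP or siFFluc, and all 6 groups of line and duplex had 2 arrays each. No untransfected cells are among the 12 arrays, so transfection was common to every group, and nothing in the labels says whether the 2 arrays of a group came from separate cultures or from how many clones the lines were grown. The p-values therefore measure array-to-array spread only, and that spread may be purely technical.

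Metalloproteinases are zinc enzymes made as inactive precursors that cleave collagens and other matrix proteins once their propeptide is removed, and TIMPs block the active enzymes by binding their catalytic site. Plasminogen activators, urokinase (PLAU) and tissue-type (PLAT), cleave plasminogen to the broad protease plasmin, and the receptor PLAUR holds urokinase at the cell surface. TIMP3 is known as the TIMP that binds tightly to the matrix and also inhibits ADAM proteinases, and both the urokinase system and metalloproteinases are widely studied in carcinoma cell invasion.

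TIMP3 and PLAU were the 2 members lower after siKDM3A in both lines at a limma adjusted p under 0.05. MMP10 differed in level between the control duplexes in SW780. The 250 bases before the start of the gene are shown for these 3 genes. They are from RefSeq on GRCh38.p14, read on the strand of the gene, with capitals marking 3 motifs: the AP-1 core TGANTCA on either strand, the GC box GGGCGG on either strand and TATAAA on the gene's strand.
TIMP3, chr22:32801455-32801704, plus strand: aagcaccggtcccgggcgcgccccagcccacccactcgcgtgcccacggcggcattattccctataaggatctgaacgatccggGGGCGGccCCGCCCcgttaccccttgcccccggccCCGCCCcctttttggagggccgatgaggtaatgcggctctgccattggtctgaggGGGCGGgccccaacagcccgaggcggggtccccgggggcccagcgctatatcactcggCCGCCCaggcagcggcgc
PLAU, upstream start, chr10:73910360-73910609, plus strand: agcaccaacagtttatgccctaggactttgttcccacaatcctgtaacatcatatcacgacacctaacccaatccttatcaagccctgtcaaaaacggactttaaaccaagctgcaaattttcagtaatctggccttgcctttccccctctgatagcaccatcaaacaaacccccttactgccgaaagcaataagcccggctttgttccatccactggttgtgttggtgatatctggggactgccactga
PLAU, downstream start, chr10:73910882-73911131, plus strand: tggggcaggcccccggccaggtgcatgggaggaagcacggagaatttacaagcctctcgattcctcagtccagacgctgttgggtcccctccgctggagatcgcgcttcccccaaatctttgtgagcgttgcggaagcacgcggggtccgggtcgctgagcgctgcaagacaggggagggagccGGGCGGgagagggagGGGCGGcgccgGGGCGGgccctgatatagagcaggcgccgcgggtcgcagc
MMP10, chr11:102780629-102780878, minus strand: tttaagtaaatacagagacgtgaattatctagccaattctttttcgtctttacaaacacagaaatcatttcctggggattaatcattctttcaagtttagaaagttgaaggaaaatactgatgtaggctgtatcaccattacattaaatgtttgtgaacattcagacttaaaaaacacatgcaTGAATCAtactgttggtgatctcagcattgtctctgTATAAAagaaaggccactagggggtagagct
The TIMP3 window held 5 GC boxes and 26 CG pairs, more CG pairs than 80.4% of 35116 such windows of all genes, whose median was 11. The downstream PLAU window held 3 GC boxes and 24 CG pairs, and the upstream one held none of the 3 motifs and 4 CG pairs. The MMP10 window held 2 CG pairs, TATAAA starting 31 bases and TGAATCA starting 67 bases before the gene's start.

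RefSeq windows were matched for 6 of the 9 genes, in 7 windows because PLAU has 2. The AP-1 core was in 2 of these 7 windows, those of MMP10 and PLAUR, against 6.57% of all windows. The ETS core AGGAAG, searched on both strands, was in 3 of 7, those of TIMP1, PLAUR and the downstream PLAU start, against 28.7%. The GC box was in 4 of 7, those of TIMP1, TIMP3, MMP14 and the downstream PLAU start, against 42.6%, and TATAAA was in 1 of 7 against 6.8%. No 2 matches overlapped in these windows. A match is a description of the letters only.

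The targeted gene was read first. KDM3A had signals of 692.5 and 712.4 after siKDM3A in A549, against 1299.7 and 1307.1 with siEGFP and 1518.6 and 1437.0 with siFFluc. In SW780 it had 196.8 and 223.0 after siKDM3A, against 409.8 and 373.1 with siEGFP and 359.1 and 432.6 with siFFluc. Every siKDM3A array lay below all control arrays of its line, at 50.5% of the control mean in A549 and 53.3% in SW780. The log2 change was -0.97 ± 0.10 (SE, limma, Benjamini-Hochberg adjusted p = 8.34e-05) in A549 and -0.86 ± 0.10 (limma, adjusted p = 2.74e-04) in SW780.

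The arrays were scaled by the depositors to 1 trimmed mean, while their median signals differed. In A549 the medians were 51.7 to 52.9 after siKDM3A and 57.3 to 58.9 in controls, and in SW780 they were 54.2 to 58.0 after siKDM3A and 50.2 to 54.1 in controls. The ratio of 3' to 5' probe signals of ACTB, a sign of RNA integrity, was 1.157 to 1.187 after siKDM3A and 1.2 to 1.295 in controls in A549, and 1.51 to 1.613 after siKDM3A and 1.392 to 1.437 in controls in SW780. The same ratio of GAPDH was 0.893 and 0.896 after siKDM3A and 0.914 to 0.932 in controls in A549. In SW780 it was 0.978 and 0.995 after siKDM3A, within the 0.96 to 0.999 of the controls. The part of these ratios in the results below was not tested. With each array rescaled to its median, the median log2 change of all genes moved to 0.105, against -0.02, in A549 and to -0.053, against 0.027, in SW780, and that of the difference of responses moved to 0.168, against -0.037.

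The lines were checked against markers of their tissues. All 6 epithelial markers passed the filter, and their summed signal was 60594 to 66894 in A549 and 119901 to 179449 in SW780. Of 9 urothelial markers 8 passed, with sums of 8862 to 9397 in A549 and 37665 to 51779 in SW780. These sums were led by the brighter probe sets. KRT5 went the other way, with group means of 5513 to 5755 in A549 and 113 to 229 in SW780. The other markers that passed were higher in SW780. In A549 PPARG was at 2183 to 2655, while UPK1A, UPK2, KRT13 and KRT20 were at 20.6 to 58.1. Of 5 alveolar markers, NKX2-1 and SFTPD did not pass and the sums were 220 to 432 over all 12 arrays. In A549 the group means of NKX2-1 were 2.85 to 16.9 and those of SFTPD 5.9 to 18.9, below the filter signal of 33.6, while those of SFTPB were 99.9 to 199 and those of NAPSA 70.1 to 105. In SW780 NKX2-1 was at 23.2 to 73.9, SFTPD at 4.35 to 12.8, SFTPB at 121 to 159 and NAPSA at 37.5 to 52.5. SFTPC was at 25.8 to 53.2 in A549 and 43.2 to 126 in SW780. Only NAPSA was higher in every A549 group, so these markers did not set A549 apart as alveolar. Of 7 fibroblast markers 4 passed, with sums of 1136 and 1010 after siKDM3A and 1351 to 1377 in controls in A549, and 675 and 692 after siKDM3A and 506 to 938 in controls in SW780; COL1A2, COL3A1 and PDGFRB did not pass. Leukocyte and endothelial sums were at most 178 and 365. The part of these in the results below was not tested.

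In A549 cells, TIMP3 and PLAU were the 2 of 9 members lower after siKDM3A, and none was higher. Over all genes tested, 6.35% were lower and 5.33% higher by the same limma test at an adjusted p of 0.05. In SW780 cells TIMP3, PLAU and MMP1 were lower, 3 of 9, and none was higher, against 6.15% of all genes lower and 5.68% higher. Genes lower in both lines were 2.28% of all genes, and 2 of the 9 members were among them, TIMP3 and PLAU. The control arrays of each line enter every comparison of that line. In these bulk samples, fewer cells of a type and less RNA per cell cannot be told apart.

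TIMP3, the matrix-bound inhibitor, had the largest change of the called members in both lines by main probe set. Its main probe set had signals of 158.0 and 148.5 after siKDM3A in A549, against 466.6 and 344.1 with siEGFP and 493.9 and 386.6 with siFFluc. In SW780 it had 921.6 and 721.4 after siKDM3A, against 2610.7 and 2613.4 with siEGFP and 2163.6 and 2481.5 with siFFluc. In each line both siKDM3A arrays lay below all 4 control arrays. The mean was 153 ± 6.72 (SD, n = 2) after siKDM3A, 36.2% of the control mean of 423 ± 69.5 (SD, n = 4) in A549, and 822 ± 142 (SD, n = 2), 33.3% of 2467 ± 212 (SD, n = 4), in SW780.

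On the log2(signal + 16) scale TIMP3 fell by 1.36 in A549 (SE 0.14, 95% interval -1.67 to -1.06, limma adjusted p = 6.48e-05) and fell by 1.57 in SW780 (SE 0.14, interval -1.88 to -1.27, adjusted p = 3.13e-05). These are 2.57-fold and 2.98-fold lower values. The response in A549 minus that in SW780 was 0.21 ± 0.20, with an interval of -0.22 to 0.64 (limma adjusted p = 0.619). The test of that difference did not pass, and the interval leaves room for responses that differ by up to 0.64 on the log2 scale.

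**Figure D1:**
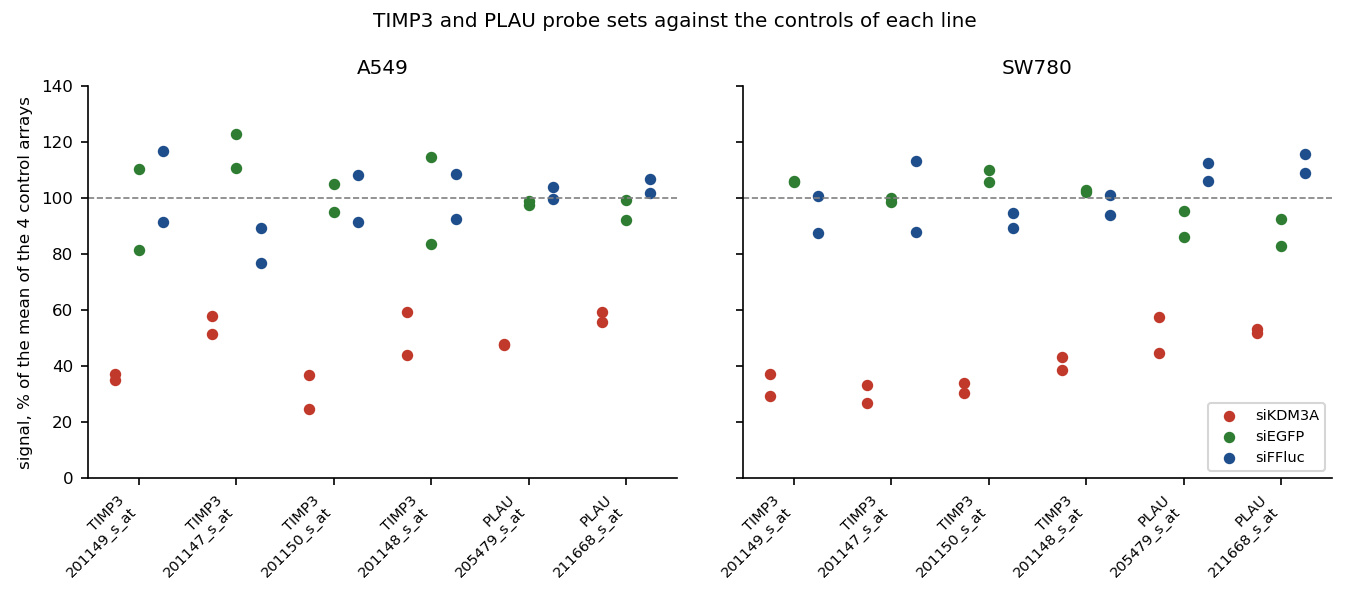
Signal of the 4 TIMP3 and the 2 PLAU probe sets on each of the 12 arrays, as a percent of the mean of the 4 control arrays of the line (dashed line), by line and duplex. Within each line, both siKDM3A arrays of all 6 probe sets lie below all 4 control arrays.

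All 4 TIMP3 probe sets were lower after siKDM3A in both lines. Of the 20 member probe sets 6 were lower in A549, against 5.52% of all kept probe sets, and 9 in SW780, against 4.93%, and none was higher, against 3.63% and 3.89%. The 6 in A549 were the 4 of TIMP3 and both of PLAU. In SW780 the 9 were the same 6 with those of MMP1, PLAUR 211924_s_at and TIMP2 224560_at. Probe sets of the same gene are repeated readings on the same arrays, not separate members. Both siKDM3A arrays lay below all controls for 19.9% of all kept probe sets in A549 and 12.7% in SW780. In A549 the siKDM3A mean was 54.8% of the control mean for 201147_s_at, 51.7% for 201148_s_at, 36.2% for 201149_s_at and 30.7% for 201150_s_at, and in SW780 it was 30.1%, 40.9%, 33.3% and 32.2% in the same order. In the fit over all kept probe sets, the log2 changes in A549 were -0.79 ± 0.13, -0.87 ± 0.15, -1.36 ± 0.14 and -1.51 ± 0.13 (SE). The limma adjusted p of these 4 ran up to 0.00229. In SW780 they were -1.71 ± 0.13, -1.26 ± 0.15, -1.57 ± 0.14 and -1.61 ± 0.13, with limma adjusted p up to 2.52e-04. The test of the difference between lines did not pass for 201148_s_at (0.39 ± 0.21), 201149_s_at (0.21 ± 0.20) or 201150_s_at (0.10 ± 0.19).

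For 201147_s_at the response differed between lines by 0.92 ± 0.18 (A549 minus SW780, limma adjusted p = 0.0278). Its signals were 188.4 and 167.3 after siKDM3A in A549, against 399.1 and 360.0 with siEGFP and 249.4 and 290.0 with siFFluc, and 591.7 and 738.9 after siKDM3A in SW780, against 2211.2 and 2184.3 with siEGFP and 2507.7 and 1942.9 with siFFluc. The test of that difference passed for 1 of the 4 TIMP3 probe sets. It ended against siEGFP alone, with a limma adjusted p of 0.178, and over all its alternatives that p lay between 0.00734 and 0.178. It also ended without A549 siFFluc replicate 1, either A549 siKDM3A array, either SW780 siEGFP array or SW780 siKDM3A replicate 1. A replicate block ended it too (limma adjusted p = 0.0518). In A549 the probe set 201148_s_at had a limma adjusted p of 0.058 without siKDM3A replicate 1, and 0.00103 to 0.058 over all alternatives.

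TIMP1 and TIMP2, the other inhibitors among the members, did not pass the test in either line against both controls together. TIMP1 had signals of 9074.6 and 9020.6 after siKDM3A in A549, against 7972.9 to 9715.7 in controls, and 4119.5 and 4360.1 in SW780, against 4580.3 to 5306.1 in controls. In A549 the arrays overlapped and the log2 change was 0.04 ± 0.08 (limma adjusted p = 0.85), while in SW780 both siKDM3A arrays lay below the controls and the change was -0.20 ± 0.08 (limma adjusted p = 0.161). TIMP2, main probe set, had 5985.3 and 6216.7 after siKDM3A in A549, against 5451.3 to 5961.8 in controls. In SW780 it had 1750.7 and 1979.6 after siKDM3A, against 1812.2 to 2553.2 in controls. The log2 changes of TIMP2 were 0.11 ± 0.08 (limma adjusted p = 0.435) in A549 and -0.17 ± 0.08 (limma adjusted p = 0.192) in SW780. In SW780 it passed against siFFluc alone, with -0.33 (limma adjusted p = 0.0277), and without SW780 siFFluc replicate 2, with -0.23 (limma adjusted p = 0.0367), and over its alternatives the adjusted p lay between 0.0277 and 0.975. A second TIMP2 probe set, 224560_at, had a log2 change of -0.37 ± 0.10 in SW780 (limma adjusted p = 0.0415, 5.14e-04 to 0.502 over all alternatives, held in 5 of 19), and 203167_at one of -0.17 ± 0.15 (limma adjusted p = 0.559).

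**Figure D2:**
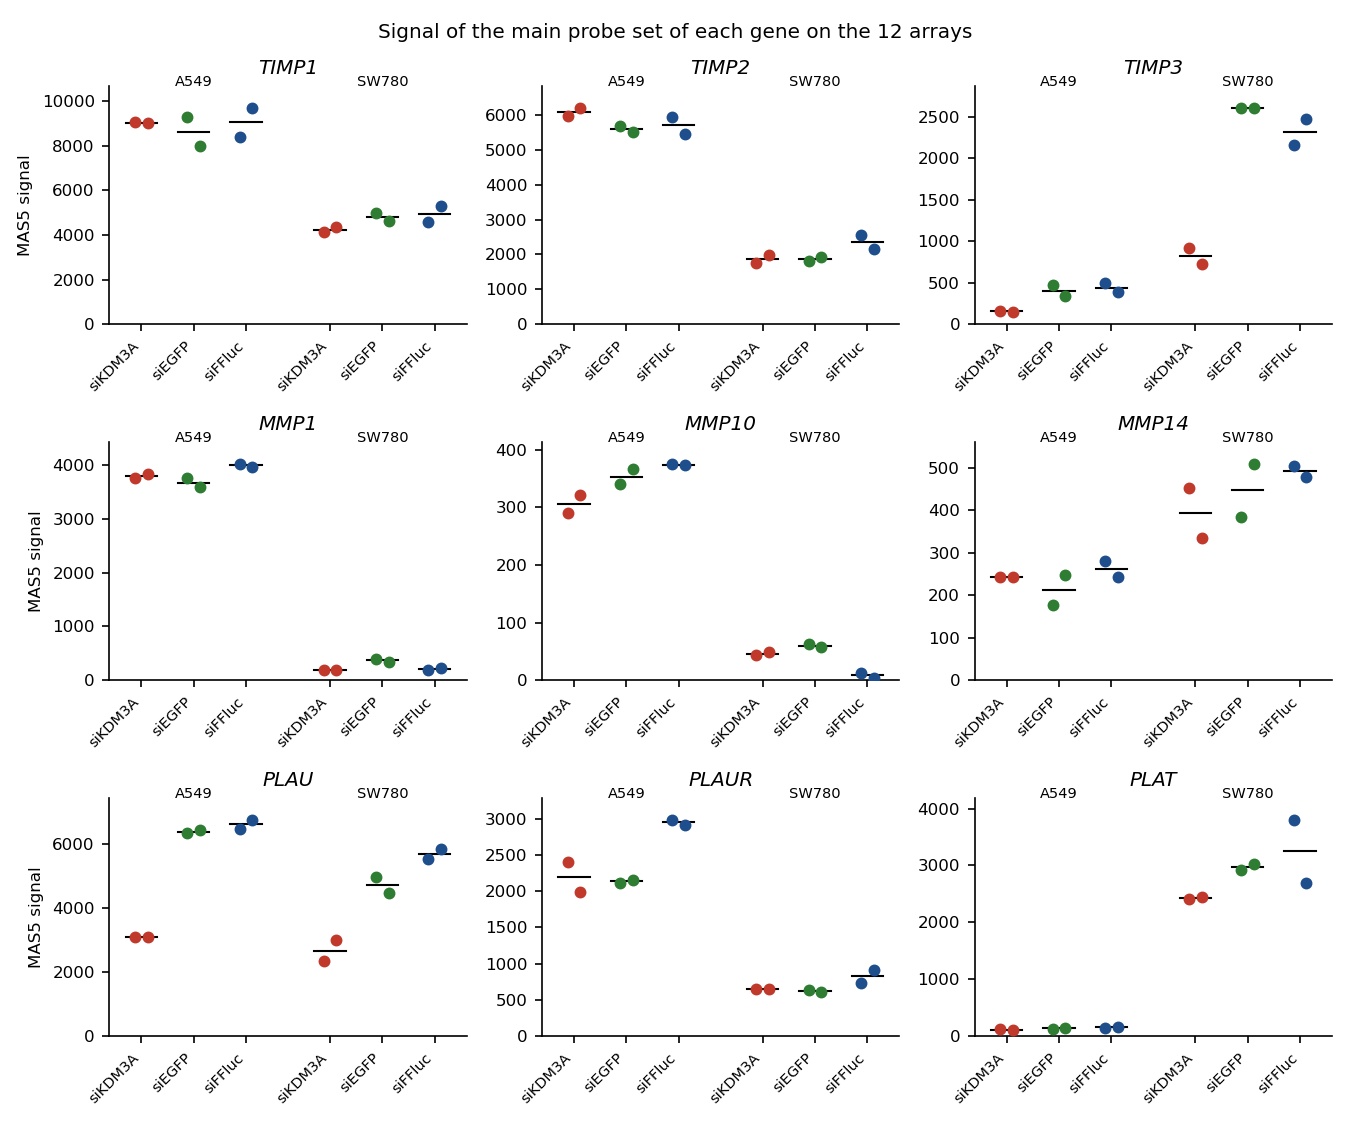
Signal (linear axis from 0, 1 scale per gene) of the main probe set of each of the 9 members on the 12 arrays, grouped by line and duplex, with a bar at each group mean. TIMP3 and PLAU are lower after siKDM3A in both lines, and MMP10 in SW780 is lowest in the siFFluc arrays.

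PLAU, urokinase, had signals of 3087.6 and 3099.7 after siKDM3A in A549, against 6331.4 and 6412.1 with siEGFP and 6470.3 and 6747.7 with siFFluc. In SW780 it had 2330.3 and 2997.4 after siKDM3A, against 4946.8 and 4470.0 with siEGFP and 5505.9 and 5843.1 with siFFluc. Both siKDM3A arrays of each line lay below all 4 controls, and the mean was 3094 ± 8.56 (SD, n = 2), 47.7% of the control mean of 6490 ± 181 (SD, n = 4), in A549. In SW780 it was 2664 ± 472 (SD, n = 2), 51.3% of 5191 ± 607 (SD, n = 4).

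PLAU fell by 1.06 in A549 (SE 0.09, interval -1.25 to -0.88, limma adjusted p = 9.08e-06) and fell by 0.96 in SW780 (SE 0.09, interval -1.15 to -0.78, limma adjusted p = 3.15e-05). The difference of responses, A549 minus SW780, was -0.10 ± 0.12, with an interval of -0.37 to 0.16 (limma adjusted p = 0.709). The other PLAU probe set, 211668_s_at, was at 57.5% of its control mean in A549 and 52.6% in SW780, with limma adjusted p of 3.28e-05 and 1.88e-05. For both genes, the change against each control duplex alone also passed the test. Against siEGFP alone the log2 change of PLAU was -1.04 in A549 and -0.83 in SW780, and against siFFluc alone it was -1.09 and -1.10.

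**Figure D3:**
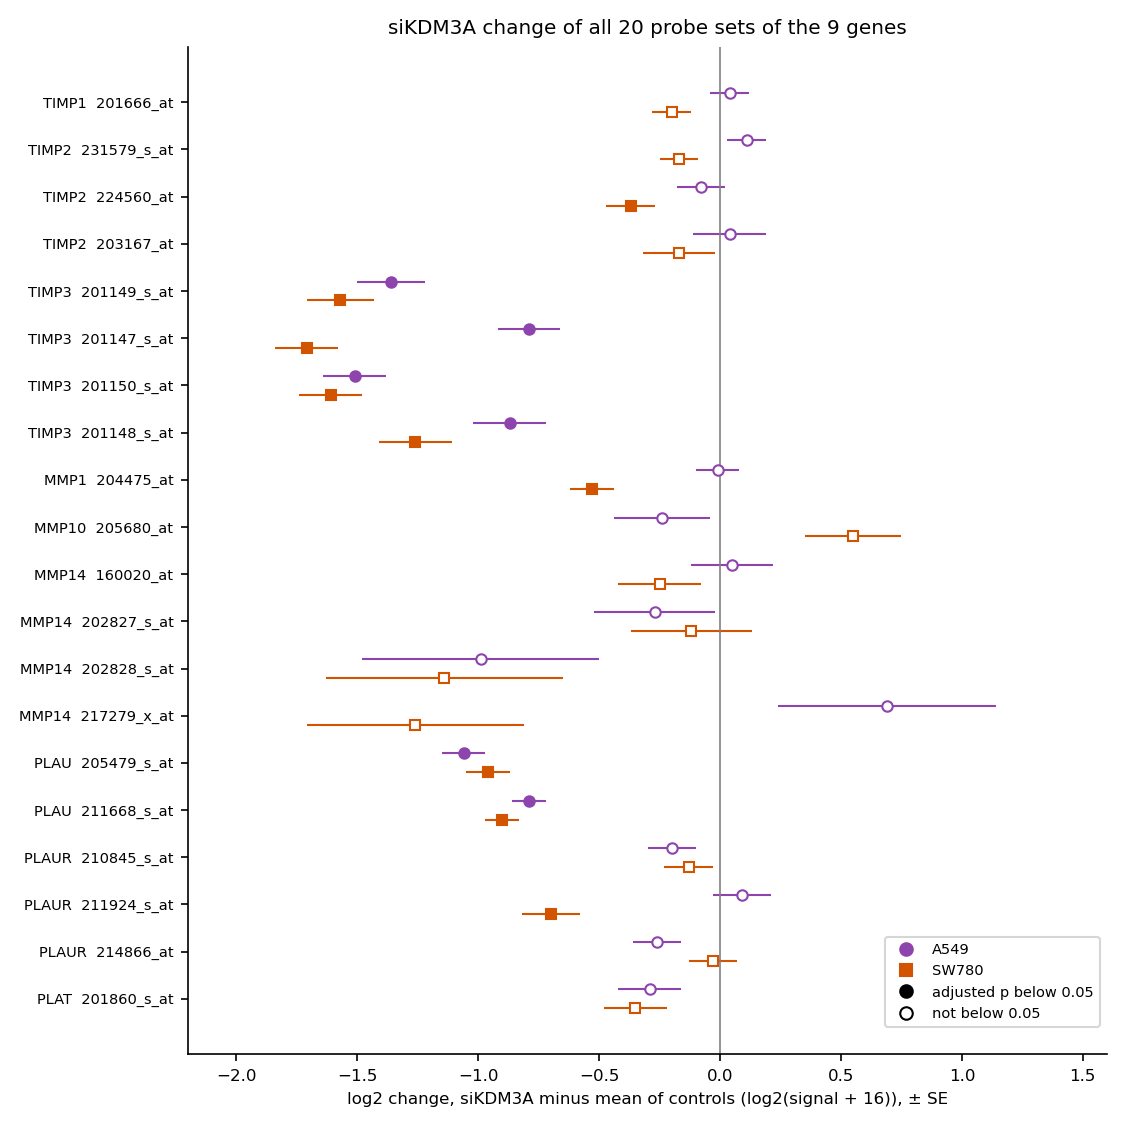
log2 change after siKDM3A against the mean of controls, with lines of 1 SE to each side, for each of the 20 member probe sets in A549 (circles) and SW780 (squares), filled where the adjusted p was below 0.05. The probe sets of TIMP3 and PLAU all lie below 0 in both lines, and the 4 MMP14 probe sets are all unfilled, on both sides of 0 in A549.

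The urokinase receptor PLAUR did not pass with its main probe set. It had signals of 2408.7 and 1994.0 after siKDM3A in A549, against 2113.9 and 2157.6 with siEGFP and 2988.1 and 2917.5 with siFFluc. In SW780 it had 645.1 and 653.1 after siKDM3A, against 636.2 and 602.6 with siEGFP and 737.0 and 908.1 with siFFluc. In A549 the siKDM3A arrays overlapped the siEGFP arrays and in SW780 they lay above them, and in both lines they lay below the siFFluc arrays. The log2 change was -0.20 ± 0.10 (limma adjusted p = 0.226) in A549 and -0.13 ± 0.10 (limma adjusted p = 0.433) in SW780. The result depended on the control. Against siEGFP alone the change was 0.04 in A549 and 0.07 in SW780 (limma adjusted p = 0.897 and 0.799), and against siFFluc alone it was -0.43 in A549, which passed (limma adjusted p = 0.0277), and -0.33 in SW780, which did not. With the mean over probe sets the SW780 change was -0.29 and passed (limma adjusted p = 0.0299). Over its alternatives the adjusted p lay between 0.0277 and 0.897 in A549 and between 0.0299 and 0.799 in SW780.

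The PLAUR probe set 211924_s_at had 1520.5 and 1446.8 after siKDM3A in A549, against 1131.0 to 1641.9 in controls, and 356.2 and 401.4 after siKDM3A in SW780, against 544.9 to 723.8 in controls. Its log2 change was -0.70 ± 0.12 in SW780 (limma adjusted p = 0.00263) and 0.09 ± 0.12 in A549 (limma adjusted p = 0.727). The difference of these responses was 0.79 ± 0.17 (limma adjusted p = 0.0359, 0.00525 to 0.141 over all alternatives). Leaving out any A549 array but siEGFP replicate 2, or any SW780 siEGFP or siKDM3A array, ended that difference. It also ended against siEGFP alone (0.0562) and against siFFluc alone (0.12), and held in 7 of 18 alternatives. The probe set 214866_at had a log2 change of -0.26 ± 0.10 in A549 (limma adjusted p = 0.157) and -0.03 ± 0.10 in SW780 (limma adjusted p = 0.916). The main probe set and 214866_at thus did not pass in either line while 211924_s_at passed in SW780, and no test between probe sets was run.

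PLAT, the tissue-type activator, had signals of 124.7 and 104.1 after siKDM3A in A549, against 122.7 to 162.4 in controls. In SW780 it had 2408.9 and 2443.3 after siKDM3A, against 2695.0 to 3805.5 in controls. Both siKDM3A arrays lay below the controls in SW780, and the arrays overlapped in A549. The log2 change was -0.29 ± 0.13 (limma adjusted p = 0.193) in A549 and -0.35 ± 0.13 (limma adjusted p = 0.122) in SW780, and neither passed.

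By position relative to all controls, both siKDM3A arrays lay below all 4 control arrays for 3 members in A549, TIMP3, PLAU and MMP10, against 19.9% of all genes, and above them for 1, TIMP2, against 17.0%. In SW780 they lay below for 4 members, TIMP1, TIMP3, PLAU and PLAT, against 13.3% of all genes, and above for none, against 15.3%. These counts use arrays on both sides of the contrast and carry no test.

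MMP1, interstitial collagenase, had signals of 3769.3 and 3840.3 after siKDM3A in A549, against 3754.4 and 3596.9 with siEGFP and 4028.5 and 3967.8 with siFFluc. In SW780 they were 192.4 and 182.3 after siKDM3A, against 397.9 and 343.7 with siEGFP and 187.9 and 229.1 with siFFluc. In A549 the arrays overlapped, and in SW780 the siKDM3A arrays lay below the siEGFP arrays and among the siFFluc arrays. MMP1 had a log2 change of -0.01 ± 0.09 in A549 (interval -0.21 to 0.19, limma adjusted p = 0.966) and fell by 0.53 in SW780 (SE 0.09, interval -0.73 to -0.33, limma adjusted p = 0.0028).

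The SW780 call for MMP1 depended on the control duplex. Against siEGFP alone the log2 change was -0.92 (limma adjusted p = 2.99e-04), and against siFFluc alone it was -0.14 (limma adjusted p = 0.44), and over its alternatives the adjusted p lay between 2.99e-04 and 0.44. The SW780 call also ended with SW780 fitted alone (limma adjusted p = 0.098). The difference of responses, A549 minus SW780, was 0.52 ± 0.13 (limma adjusted p = 0.053) and did not pass. Without SW780 siFFluc replicate 1 that difference was 0.59 (limma adjusted p = 0.0126) and without SW780 siFFluc replicate 2 it was 0.45 (limma adjusted p = 0.0282), within 0.00721 to 0.849 over its alternatives.

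MMP10, stromelysin-2, had signals of 289.6 and 321.8 after siKDM3A in A549, against 340.2 and 367.3 with siEGFP and 376.1 and 373.1 with siFFluc. In SW780 its signals were 43.0 and 48.8 after siKDM3A, against 61.9 and 57.7 with siEGFP and 12.3 and 3.7 with siFFluc. The SW780 siKDM3A arrays thus lay between the 2 kinds of control, near the filter signal of 33.6. MMP10 had a log2 change of -0.24 ± 0.21 in A549 (limma adjusted p = 0.528) and 0.55 ± 0.21 in SW780 (limma adjusted p = 0.114). Against siEGFP alone the SW780 change was -0.29 (limma adjusted p = 0.545), and against siFFluc alone it was 1.39 (limma adjusted p = 0.00226), within 0.00226 to 0.545 over its alternatives. The siFFluc signals lay below the filter signal, so the size of the last value depends on the pseudocount.

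MMP14, a metalloproteinase anchored in the plasma membrane, had signals of 242.7 and 242.6 after siKDM3A in A549, against 176.7 to 279.7 in controls, and 452.7 and 334.8 in SW780, against 384.1 to 509.9 in controls. The arrays overlapped in both lines. The log2 change was 0.05 ± 0.17 (limma adjusted p = 0.902) in A549 and -0.25 ± 0.17 (limma adjusted p = 0.395) in SW780. Its 3 other probe sets had lower means of 141, 75.8 and 68.0 over the 12 arrays, and their log2 changes in A549 were -0.27, -0.99 and 0.69, none past the test. In SW780 they were -0.12, -1.14 and -1.26, none past the test.

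The control duplexes were compared with each other, as the reference against which the knockdown was read. In A549, 1 of 9 members was lower with siEGFP than with siFFluc, PLAUR, against 1.43% of all genes, and none was higher, against 1.49%. In SW780, 2 of 9 members were higher with siEGFP, MMP1 and MMP10, against 2.60% of all genes, and none was lower, against 2.97%. MMP1 differed by 0.79 ± 0.11 (limma adjusted p = 0.00148) and MMP10 by 1.68 ± 0.24 (limma adjusted p = 0.00218). The siFFluc signals of MMP10 in SW780 lay below the filter signal, so the size of its difference is set by the pseudocount, with 2.94 on the log2(signal + 1) scale and 1.42 to 2.94 over its alternatives. Both calls ended with each line fitted alone, with limma adjusted p of 0.103 for MMP1 and 0.105 for MMP10, and over the alternatives the p lay between 3.48e-04 and 0.103 for MMP1 and between 0.00125 and 0.105 for MMP10. MMP1 and MMP10 are neighbours on chromosome 11. Neither differed between duplexes in A549, where MMP1 had -0.12 ± 0.11 (limma adjusted p = 0.755) and MMP10 had -0.08 ± 0.24 (limma adjusted p = 0.954), and the difference between lines was not tested.

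PLAUR in A549 differed between the control duplexes by -0.46 ± 0.11 (limma adjusted p = 0.0403), and this call held in 8 of 19 alternatives, with limma adjusted p of 0.0105 to 0.231. Each of the 4 A549 control arrays left out in turn ended it, with adjusted p of 0.172 to 0.231. In SW780 the same gene had -0.39 ± 0.11 (limma adjusted p = 0.0573). At probe set level, where 1.02% of all kept probe sets were lower and 1.15% higher with siEGFP in A549, 1 of 20 was lower and none higher. In SW780 3 of 20 were higher and 1 lower, against 2.07% and 1.98%. PLAU 211668_s_at was lower with siEGFP in SW780 with a log2 difference of -0.36 ± 0.09 (limma adjusted p = 0.0355), while PLAUR 214866_at was higher by 0.48 ± 0.12 (limma adjusted p = 0.0435). The main probe sets of TIMP3 and PLAU did not pass in either line. Their differences between duplexes were -0.12 and 0.17 for TIMP3, and -0.05 and -0.27 for PLAU, in A549 and in SW780.

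**Figure D4:**
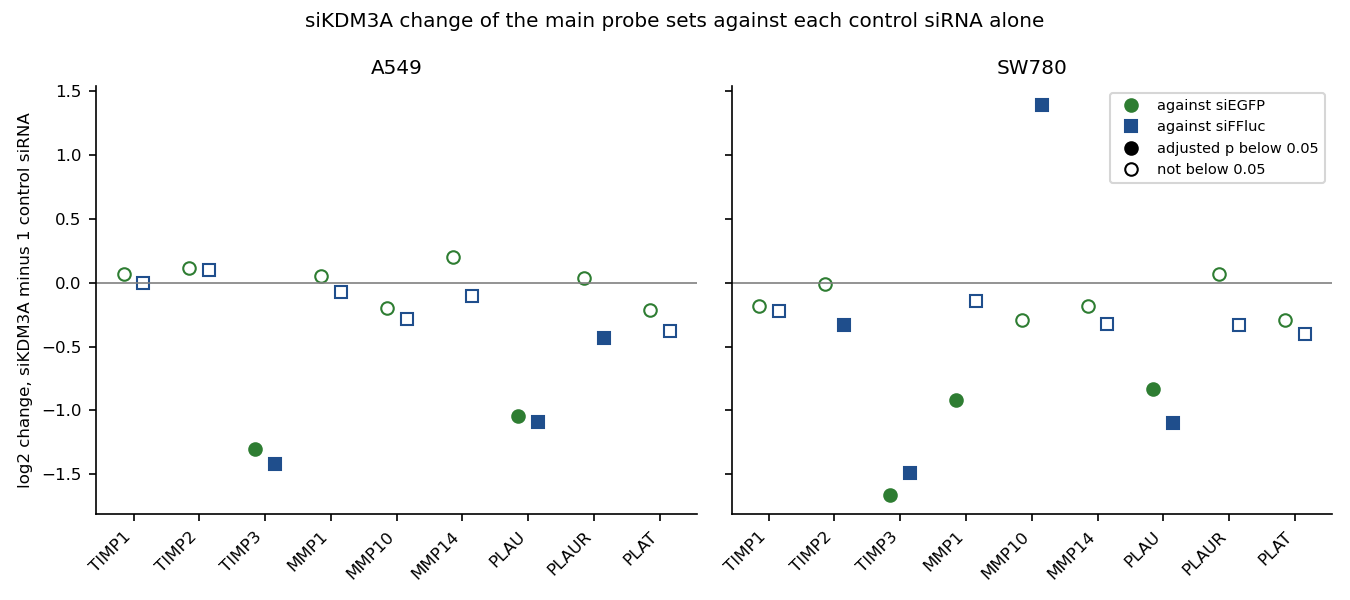
log2 change after siKDM3A against siEGFP alone (circles) and against siFFluc alone (squares), for the main probe set of each member in A549 and SW780, filled where the adjusted p was below 0.05. TIMP3 and PLAU lie below -0.8 against either control in both lines, whereas MMP10 in SW780 lies at -0.29 against siEGFP and 1.39 against siFFluc.

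Between lines, all 9 members differed in the control arrays, 6 higher and 3 lower in A549, against 38.8% and 30.1% of all genes, so most genes differ between these lines. Higher in A549 were MMP1 with a log2 difference of 3.71 ± 0.07 (limma adjusted p = 1.35e-13), MMP10 with 3.17 ± 0.17 (limma adjusted p = 1.84e-09, or 4.06 on the log2(signal + 1) scale) and PLAUR with 1.80 ± 0.08 (limma adjusted p = 2.23e-10). TIMP2 with 1.42 ± 0.06, TIMP1 with 0.86 ± 0.07 and PLAU with 0.33 ± 0.07 (limma adjusted p = 9.63e-04) were also higher. Lower in A549 were PLAT with -4.28 ± 0.11 (limma adjusted p = 1.23e-12), TIMP3 with -2.51 ± 0.11 (limma adjusted p = 3.70e-10) and MMP14 with -0.95 ± 0.14 (limma adjusted p = 4.03e-05). These values are of the main probe sets. The MMP14 probe set 202827_s_at gave -0.32 ± 0.20 (limma adjusted p = 0.193) and did not pass, while the other MMP14 probe sets passed as lower. With median scaling PLAU gave 0.09 (limma adjusted p = 0.352), and the median difference of all genes moved to -0.11, against 0.112.

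The order of the 6 groups differed between the genes. TIMP3 was highest in SW780 with siEGFP, at a mean signal of 2612, then with siFFluc at 2323, and then after siKDM3A in SW780 at 822. The A549 groups followed, with siFFluc at 440, siEGFP at 405 and siKDM3A at 153. The A549 siFFluc and siEGFP arrays overlapped, and the other neighbours in this order did not. Even after siKDM3A, TIMP3 in SW780 was above every A549 array.

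PLAU was ordered otherwise, with siFFluc at 6609 and siEGFP at 6372 in A549, then siFFluc at 5674 and siEGFP at 4708 in SW780, and the siKDM3A groups lowest at 3094 in A549 and 2664 in SW780. No neighbours in that order overlapped. For TIMP3 the 3 SW780 groups held the top places, while for PLAU the 2 siKDM3A groups held the lowest places.

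The genes most like TIMP3 over the 12 arrays, after subtraction of each line's mean, were DNAJC10 with a Pearson r of 0.985, FAM20B with 0.984 and UAP1 with 0.981. Those most like PLAU were SCLY with 0.984, CD109 with 0.983 and AAR2 with 0.981. UAP1 had signals of 1589.5 and 1489.9 after siKDM3A in A549, against 3373.3 to 3589.7 in controls, and AAR2 had 692.2 and 697.5, against 1603.5 to 1749.5. MMP1 had PDGFC at 0.922, CDK4 at 0.917 and PURPL at 0.899. MMP10 had MTERF3 at 0.949, SAAL1 at 0.928 and PECR at 0.912. MMP14 had CIMAP2 and VPS45 at 0.887 and TASL at 0.883, PLAUR had COQ10B at 0.921, OGA at 0.891 and ACKR3 at 0.89, and PLAT had MLXIP at 0.939, TAPBP at 0.923 and APLP1 at 0.919. TIMP1 had TLCD4 and VPS35 at 0.898 and PLEKHA6 at 0.87, and TIMP2 had RAC2 at 0.925, PRUNE1 at 0.924 and NFXL1 at 0.916. These are the highest values among all genes tested and share the same 12 arrays, so they describe likeness in these arrays only. Some of the genes named here lay near or below the filter signal of 33.6 on some arrays. CIMAP2 was at 12.1 to 35.5 in A549, PURPL at 0.3 to 22.9 in SW780 and TASL at 1.7 to 89.9 over all arrays.

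Genes of the same pathways were read from 5 lists written from general knowledge, and most did not pass in either line. Of 16 other metalloproteinases and inhibitors tested, of 22 on the array, 1 was lower in A549 and 2 in SW780, beside 6.35% and 6.15% of all genes lower. The medians were 0.04 and -0.31, beside -0.02 and 0.03 for all genes. Some of the 16 lay below the filter signal of 33.6 on every SW780 array, and the SW780 median includes their changes. BSG, an inducer of metalloproteinase production, had 5080.3 and 5098.1 after siKDM3A in A549, against 4499.3 to 5191.3 in controls, and 1506.3 and 1328.1 in SW780, against 2202.3 to 2485.9. In SW780 BSG fell by 0.72 (SE 0.07, limma adjusted p = 6.62e-05), and its response differed between lines by 0.77 ± 0.10 (limma adjusted p = 0.00308). MMP2, gelatinase A, had 264.2 and 317.7 after siKDM3A in A549, against 366.3 to 507.3 in controls, and 435.4 and 373.6 in SW780, against 593.4 to 1036.3.

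MMP2 fell by 0.54 in A549 (SE 0.13, limma adjusted p = 0.0155) and fell by 0.88 in SW780 (SE 0.13, limma adjusted p = 8.40e-04). The A549 call ended without A549 siFFluc replicate 2 and without A549 siKDM3A replicate 1, with limma adjusted p of 0.051 and 0.192, and against siEGFP alone, with -0.39 (limma adjusted p = 0.134), and over its alternatives the p lay between 0.00807 and 0.192. MMP2 itself was lower with siEGFP than with siFFluc in SW780, by a log2 difference of -0.60 ± 0.14 (limma adjusted p = 0.032). The SW780 change after siKDM3A became -0.33 with the mean over probe sets (limma adjusted p = 0.323), and over its alternatives the adjusted p ran between 2.76e-04 and 0.323. Of 12 other plasminogen genes tested, of 17 on the array, none passed in A549 and 1 was lower in SW780, with medians of -0.05 and -0.16, beside the same shares and medians of all genes. That was SERPINE2, which inhibits plasminogen activators and thrombin, with 1878.0 and 2127.7 after siKDM3A in SW780, against 2507.9 to 2923.5 in controls, and a fall of 0.45 (SE 0.07, limma adjusted p = 0.00119). With the mean over its probe sets SERPINE2 gave 0.02 (limma adjusted p = 0.975), the highest of its alternatives.

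Of 18 ADAM and ADAMTS proteinases tested, 1 was lower in A549, and 3 were lower and 1 higher in SW780, beside 6.35% of all genes lower in A549 and 6.15% lower and 5.68% higher in SW780. The medians were -0.17 and -0.02, beside -0.02 and 0.03 for all genes. ADAM19, a membrane-bound sheddase, had 301.1 and 304.9 after siKDM3A in A549, against 461.9 to 682.5 in controls, and fell by 0.93 (SE 0.12, limma adjusted p = 4.25e-04). It had 428.0 and 469.9 in SW780, against 633.4 to 739.1, and fell by 0.55 (SE 0.12, limma adjusted p = 0.0127). The SW780 call of ADAM19 ended without either SW780 siKDM3A array, with limma adjusted p of 0.118 and 0.0535, and over its alternatives the p lay between 0.00614 and 0.118. That call also ended against siEGFP alone, with a limma adjusted p of 0.0633. ADAMTS13, which cleaves von Willebrand factor, was the 1 higher in SW780, with 91.0 and 146.4 after siKDM3A, against 86.0 and 66.8 with siEGFP and 27.3 and 21.4 with siFFluc. Both siKDM3A arrays lay above all 4 controls, 1 of them close to the higher siEGFP array. ADAMTS13 itself was higher with siEGFP than with siFFluc in SW780, by 1.19 ± 0.32 (limma adjusted p = 0.0493). Its log2 change after siKDM3A was 1.12 ± 0.28 (limma adjusted p = 0.021) against both controls and 0.52 (limma adjusted p = 0.396) against siEGFP alone. The siFFluc signals lay below the filter signal of 33.6, so the sizes of the changes that use them depend on the pseudocount. The call also ended with SW780 fitted alone (0.0662), without SW780 siEGFP replicate 2 and without SW780 siKDM3A replicate 2, and over its alternatives the adjusted p lay between 0.00378 and 0.396. ADAM9 fell by 0.36 in SW780 (SE 0.10, limma adjusted p = 0.0287), with -0.16 for the mean over probe sets (limma adjusted p = 0.315), and held in 14 of 21 alternatives, with adjusted p between 0.00663 and 0.315. ADAM9 also ended against siEGFP alone, with SW780 fitted alone, and without SW780 siEGFP replicate 1, siFFluc replicate 1 or either siKDM3A array. ADAM12, counted as lower in SW780, had 2.5 and 8.0 there after siKDM3A and 14.8 to 51.3 in controls. It passed the filter through its A549 signals of 227.9 to 272.1. Its SW780 change of -1.20 was -0.15 with the mean over probe sets (limma adjusted p = 0.743), and the call also ended against siFFluc alone, with SW780 fitted alone and without SW780 siKDM3A replicate 1, so no direction is read from it; over its alternatives the adjusted p lay between 0.00427 and 0.743.

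Of 20 proprotein convertases, cathepsins, heparanase and cystatins, 4 were lower in A549 and 6 in SW780 and none was higher, beside 6.35% and 6.15% of all genes lower. The median was -0.16 in each line, beside -0.02 in A549 and 0.03 in SW780 for all genes. CTSS, cathepsin S, had 439.0 and 409.7 after siKDM3A in A549, against 691.7 to 738.3 in controls, and fell by 0.73 (SE 0.08, limma adjusted p = 1.42e-04). CTSS also fell by 0.32 in SW780 (SE 0.08, limma adjusted p = 0.0266). Its difference of responses did not pass (limma adjusted p = 0.0837). CST6 and PCSK5 fell by 0.36 and 0.73 in A549 (limma adjusted p = 0.0341 and 0.0414). These calls each held in 7 of 21 alternatives. CTSC fell by 0.31 in SW780 (limma adjusted p = 0.0212), a call that held in 15 of 21. CTSD, cathepsin D, had 435.8 and 427.8 after siKDM3A in SW780, against 645.5 to 796.1 in controls, and fell by 0.66 (SE 0.10, limma adjusted p = 0.00114). CTSA, a lysosomal carboxypeptidase, fell by 0.31 in A549 and fell by 0.36 in SW780. The A549 call of CTSA ended without A549 siFFluc replicate 2 or either A549 siKDM3A array, and with median scaling, where the change was -0.17 (limma adjusted p = 0.134, 0.00687 to 0.166 over its alternatives). The SW780 call ended without SW780 siKDM3A replicate 1. CST3, the cathepsin inhibitor cystatin C, fell by 0.34 in SW780 (SE 0.05, limma adjusted p = 0.00146), with 3046.7 and 3037.3 after siKDM3A and 3676.6 to 4078.5 in controls. With the mean over its probe sets the CST3 call ended (limma adjusted p = 0.0849, 6.77e-04 to 0.0849 over its alternatives).

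Of 19 AP-1 and ETS factors, families with binding sites known in promoters of several of these genes, 3 were lower in A549 and 3 in SW780 and none was higher, beside 6.35% and 6.15% of all genes lower. The medians of -0.06 and -0.03 were near those of all genes, -0.02 and 0.03. JUN, an AP-1 subunit, had 3557.3 and 3413.4 after siKDM3A in A549, against 4244.6 to 4986.0 in controls, and fell by 0.39 (SE 0.09, limma adjusted p = 0.0128). The JUN call ended without either A549 siKDM3A array, with limma adjusted p of 0.0775 and 0.134, with median scaling, where the change was -0.25 (0.0967), and against siEGFP alone, where it was -0.32 (0.0721), and over its alternatives the p lay between 0.0018 and 0.134. FOSL2, another AP-1 subunit, fell by 0.24 in both lines, a call that held in 8 of 21 alternatives in A549 and 10 of 21 in SW780. It was -0.04 in A549 with the mean over probe sets, -0.10 with median scaling and -0.08 against siFFluc alone, and -0.11 in SW780 against siEGFP alone. ETV4, an ETS factor, had 29.6 and 13.9 after siKDM3A in SW780, against 74.6 to 114.9 in controls, and fell by 1.52 (SE 0.22, limma adjusted p = 9.16e-04). Both siKDM3A signals lay below the filter signal of 33.6, so the size of this fall depends on the pseudocount. Over its alternatives the SW780 change ran from -2.08 to -1.21. In A549 ETV4 fell by 0.74 (SE 0.22, limma adjusted p = 0.0463), a call that held in 7 of 21 alternatives, with adjusted p between 0.00707 and 0.254. FOSL1, a further AP-1 subunit, was higher with siEGFP than with siFFluc in both lines, with 3645.7 and 3870.6 against 2192.9 and 2283.7 in A549 and 1792.4 and 1896.2 against 1268.3 and 1051.1 in SW780. It was the only 1 of the 19 factors higher with siEGFP, and 2 were lower in each line. All genes had 1.49% higher and 1.43% lower in A549, and 2.60% and 2.97% in SW780. In SW780 the 2 lower were JUN with -0.41 ± 0.10 (limma adjusted p = 0.033) and ELK1 with -0.71 ± 0.17 (limma adjusted p = 0.0307).

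**Figure D5:**
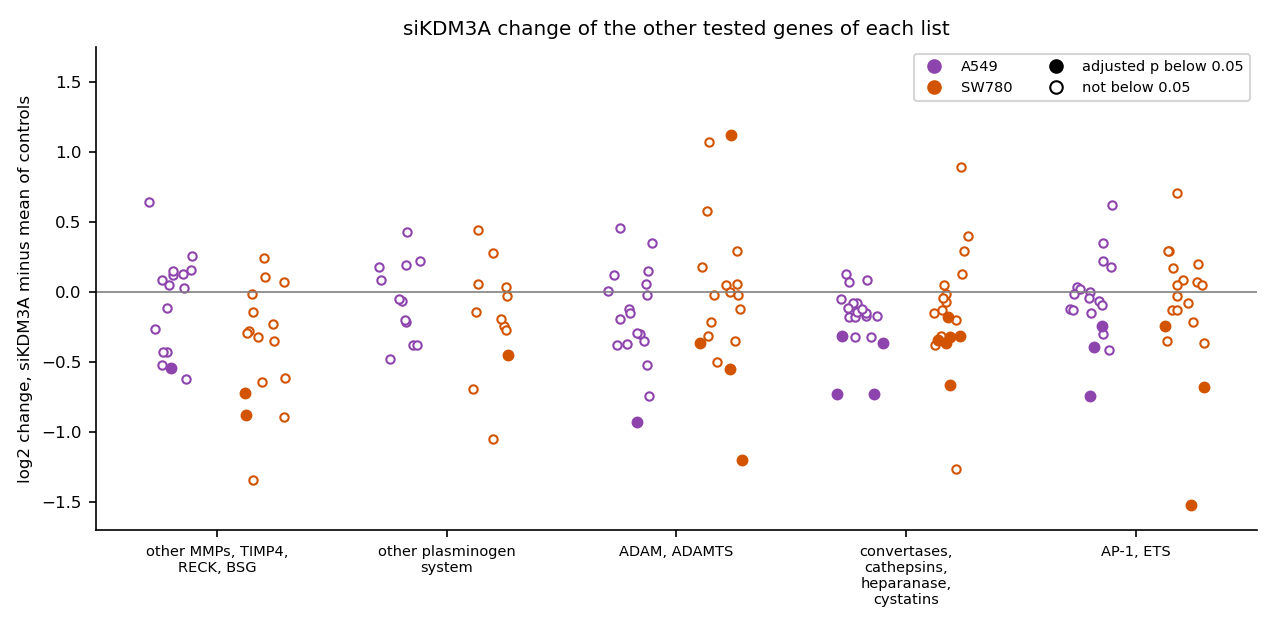
log2 change after siKDM3A against the mean of controls in A549 and SW780 for each tested gene of the 5 lists, filled where the adjusted p was below 0.05. ADAMTS13 in SW780, at 1.12, is the only filled point above 0.

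Over all genes tested, 749 were higher and 893 lower after siKDM3A in A549 and 798 higher and 865 lower in SW780. With median scaling the split was 2075 and 475 in A549 and 376 and 1266 in SW780. The difference of responses had 137 positive (0.974%) and 250 negative genes (1.78%), 2.75% in all, against 1467 and 128 with median scaling, and no member gene passed it. Of the 20 member probe sets 2 passed it, against 0.598% of all kept probe sets positive and 1.19% negative. siEGFP against siFFluc in SW780 had 365 higher and 418 lower, against 251 and 188 with quantile normalization, and A549 against SW780 in controls had 5453 and 4236, against 4052 and 5548 with median scaling. The calls of TIMP3 and PLAU held in 21 of 21 alternatives in both lines.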

How the data were processed

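Total RNA of 12 samples, 2 arrays for each of 6 groups of line and siRNA, was hybridised to 1-colour U133 Plus 2.0 arrays. The deposited values are linear signal intensities per probe set, made by the authors with MAS5 per the submitters' processing notes (version not given in the sources used here). Their trimmed mean, with 2% left out at each end, was 500.1 on every array. No detection calls were used. Of 54613 probe sets that are not controls, 41091 had 1 gene symbol in the platform annotation of 2016, 1801 several and 11721 none, and 41037 matched RefSeq. Probe sets with several genes or none were not named.

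Probe sets with a mean signal of at least 33.6, the 40th percentile, were kept, with the highest-mean probe set for each gene. log2(signal + 16) was fitted with limma 3.58.1 (R 4.3.3), lmFit and eBayes with a trend, to 6 group means, with no block and Benjamini-Hochberg adjustment over 14061 genes (27098 probe sets in the probe set fit). An adjusted p under 0.05 was called. Changes of dim genes are understated on this scale. The contrasts were siKDM3A minus the mean of both control groups in each line, their difference, siEGFP minus siFFluc, and A549 minus SW780 in controls. Simulated data for the A549 contrast, with 200 of 14061 genes changed, gave 48.5% recovered at 1.5-fold and 69.5% at 2-fold. Of the simulated calls 6.73% and 1.42% were false. The arrays themselves had 1642 genes called in this contrast, and the simulation gave both control duplexes the same mean. These shares therefore need not hold for the arrays. The number of arrays limits the precision. Figures were drawn with matplotlib 3.10.9 in Python 3.11.15.

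The members and lists were chosen with earlier results of these data known, and the lists come from general knowledge. Named genes were the members, KDM3A, up to 4 called genes of smallest p per list and siKDM3A comparison, up to 2 for the difference, and the 3 genes most like each member; FOSL1 was named after its values were seen. Arrays with the same replicate number did not deviate together (r -0.03 to 0.019 between groups), so the numbers were not taken as pairs. The alternatives were another pseudocount, no filter, quantile normalization, median scaling, the mean over probe sets, each line alone, each control alone, a replicate block and each array left out.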

Additional observations from a re-analysis of the deposited data

Results flagged for a closer look

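For 6 results the responses to siKDM3A differed between A549 and SW780 by the test of the difference itself, given as A549 minus SW780 on the log2 scale. Both member probe sets among them were positive, with 0.92 for TIMP3 201147_s_at and 0.79 for PLAUR 211924_s_at, while the main probe sets of both genes did not pass that test. Among the listed genes the differences were 0.77 for BSG, 0.47 for CST3 and 0.87 for ELK1. ADAMTS13 gave -1.86. The call of ELK1 held in 5 of 20 alternatives and that of ADAMTS13 in 9 of 20, against 16 of 20 for CST3 and 20 of 20 for BSG. ADAMTS13 also differed between the control duplexes in SW780, by 1.19 on the log2 scale. ELK1 also differed between the control duplexes in SW780, with 453.0 and 402.1 for siEGFP and 861.4 and 586.0 for siFFluc, beside 331.6 and 343.2 after siKDM3A. With 2 arrays in a group, no array was tested as an outlier.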

How the results depend on the processing

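TIMP3 and PLAU kept direction and call in all 21 alternatives in both lines. With a replicate block, genes past the threshold for the difference of responses were 238 against 387, and A549 members for siEGFP against siFFluc were 0 against 1; it changed no other count of calls by over 1.5 times. The block ended the calls of PLAUR between duplexes in A549 (0.0616), TIMP3 201147_s_at for the difference (0.0518), TIMP2 224560_at in SW780 (0.0595) and ADAMTS13 (0.0548) and ELK1 (0.0544) for the difference, given as adjusted p. With median scaling, A549 siKDM3A genes were 2550 against 1642, difference genes 1595 and members 3, and SW780 siEGFP against siFFluc genes 511 against 783, which were 439 with quantile normalization. With each line alone, A549 siKDM3A genes were 2616, SW780 siKDM3A genes 852 against 1663, SW780 siEGFP against siFFluc genes 148 and members 0 against 2. With siEGFP alone, SW780 siKDM3A genes were 871, difference genes 77 and members 1, and with siFFluc alone members 1. Without the filter, difference genes were 214 and A549 siEGFP against siFFluc members 0; with the mean over probe sets these were 154 and 0.

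Leaving out 1 array gave 524 to 2379 siKDM3A genes in A549 and 737 to 2605 in SW780, with 2 to 2 and 3 to 5 members, 41 to 951 difference genes with 0 to 1 members, 176 to 583 and 184 to 1928 genes for siEGFP against siFFluc with 0 to 1 and 2 to 3 members, and 9174 to 9678 genes between lines with 9 to 9 members. The highest SW780 counts came without SW780 siFFluc replicate 2.

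Direction turned for values that were not called, except SERPINE2. In A549 after siKDM3A, TIMP1 gave -0.05 with quantile normalization, MMP1 0.12 with median scaling and 0.05 against siEGFP, MMP14 -0.13 with the mean over probe sets and -0.10 against siFFluc, and PLAUR 0.04 against siEGFP. In SW780, MMP10 gave -0.29 and PLAUR 0.07 against siEGFP, and SERPINE2 0.02 with the mean over probe sets. For the difference, MMP10 gave 0.09 against siEGFP, PLAU 0.12 with median scaling, 0.01 with the mean over probe sets and 0.01 against siFFluc, and PLAUR 0.15 with median scaling and 0.17 with the mean. For siEGFP against siFFluc, TIMP3 in A549 gave 0.08 and PLAUR in SW780 0.03 with the mean. With 1 array left out, TIMP1 and MMP14 after siKDM3A in A549 ran from -0.02 to 0.09 and -0.06 to 0.16; the differences of PLAT, PLAU and PLAUR from -0.07 to 0.18, -0.28 to 0.08 and -0.20 to 0.07; siEGFP against siFFluc in A549 for TIMP1, TIMP2 and TIMP3 from -0.18 to 0.04, -0.09 to 0.04 and -0.33 to 0.09, and in SW780 for MMP14, PLAT and TIMP1 from -0.34 to 0.05, -0.35 to 0.14 and -0.15 to 0.07. The causes were not tested.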
